A study of Mus musculus with 18 samples.

Results

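The net change of gene expression between TKO ESCs (day 0) and the embryoid bodies (EBs) grown from them for 16 days was measured on 4 arrays, 2 of each, out of 18 arrays in the series. The cells are J1 (129Sv/Jae) mouse ESCs of the genotype dnmt1-/-, dnmt3a-/-, dnmt3b-/- (TKO), which lack all 3 catalytically active DNA methyltransferases at both ends of the comparison, and the EBs were made in hanging drops. The other arrays hold TKO EBs at day 4 and wt and Dnmt1-/- J1 cells at days 0, 4 and 16, again with 2 arrays each. Members are all 35512 probe sets of the Affymetrix GeneChip Mouse Gene 1.0 ST array, of which 1 probe set was taken for each of 19938 genes. Values are log2 signals, differences are day 16 minus day 0 on that scale, and a probe set was called higher or lower where limma gave a difference of at least 1 with an adjusted p below 0.05. The labels call the 2 arrays of a group biological replicates and name 1 line for each genotype, so that what belongs to the genotype and what belongs to the line cannot be told apart.

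In EBs, ESCs leave the pluripotent state without directing signals, and the outer cell layer usually becomes an extraembryonic endoderm resembling that of the yolk sac. Visceral endoderm of the yolk sac takes up maternal proteins through endocytic receptors and lysosomes, and secretes carrier proteins and lipoproteins much as the liver does later. Inner cells pass through epiblast and primitive streak states to blood vessels, heart, blood and nerve cells. DNA methylation is one of the marks that hold pluripotency, germ line and placental genes silent in somatic cells.

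The probe sets of the targeted genes gave lower signals in TKO than in wt ESCs but did not vanish. *Dnmt1* averaged 8.42 in TKO and 9.69 in wt ESCs, *Dnmt3a* 7.54 and 9.16, and *Dnmt3b* 7.39 and 9.90. A probe set spread over the whole transcript can also read what lies outside a deletion, and the source of the remaining signal was not tested. The TKO ESC arrays read high for the pluripotency markers *Pou5f1* (11.64 and 11.45), *Nanog* (11.18 and 11.17), *Sox2* (10.84 and 10.88), *Zfp42* (10.90 and 10.65) and *Esrrb* (9.88 and 9.97), as an ESC label requires. At day 16 the visceral endoderm markers *Afp*, *Ttr* and *Apoa1* read 10.95 and 10.92, 11.20 and 10.28 and 10.68 and 9.95. *Hnf4a* and *Amn*, chosen as markers beside them, were not called, and their values are given below. Of 23 macrophage genes, with differences from -1.38 to 1.26, 1 was called higher, and of 27 heart genes, from -0.31 to 2.22, 4 were. None was called lower in either list. Over all genes 2.34% were called higher and 0.762% lower. The 2 day 16 arrays correlated at r = 0.981 over all probe sets, the lowest value of the 9 replicate pairs.

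Between day 0 and day 16, 663 probe sets were called higher (1.87% of those tested) and 224 lower (0.631%). By gene, 466 were called higher (2.34%) and 152 lower (0.762%). Rises were the larger changes: the median was 1.44 among the genes called higher and -1.21 among those called lower, and 107 genes rose but only 7 fell by more than 2. The median over all probe sets was -0.01 and the median SE 0.20. The number of called probe sets depended on single arrays. It was 393 without day 0 replicate 1, 646 without day 0 replicate 2, 436 without day 16 replicate 1 and 895 without day 16 replicate 2, against 887 with all arrays. In 216 genes (174 higher, 42 lower) the call held without each of the 4 arrays in turn. As the EBs were measured whole, more cells of a type and more RNA per cell cannot be told apart in any of the changes below. In wt 8.65% of all genes were called higher and 5.67% lower, and in Dnmt1-/- 6.46% and 2.69%. Counts of called list members in the 3 genotypes are to be read beside these shares and those of TKO.

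**Figure D1:**
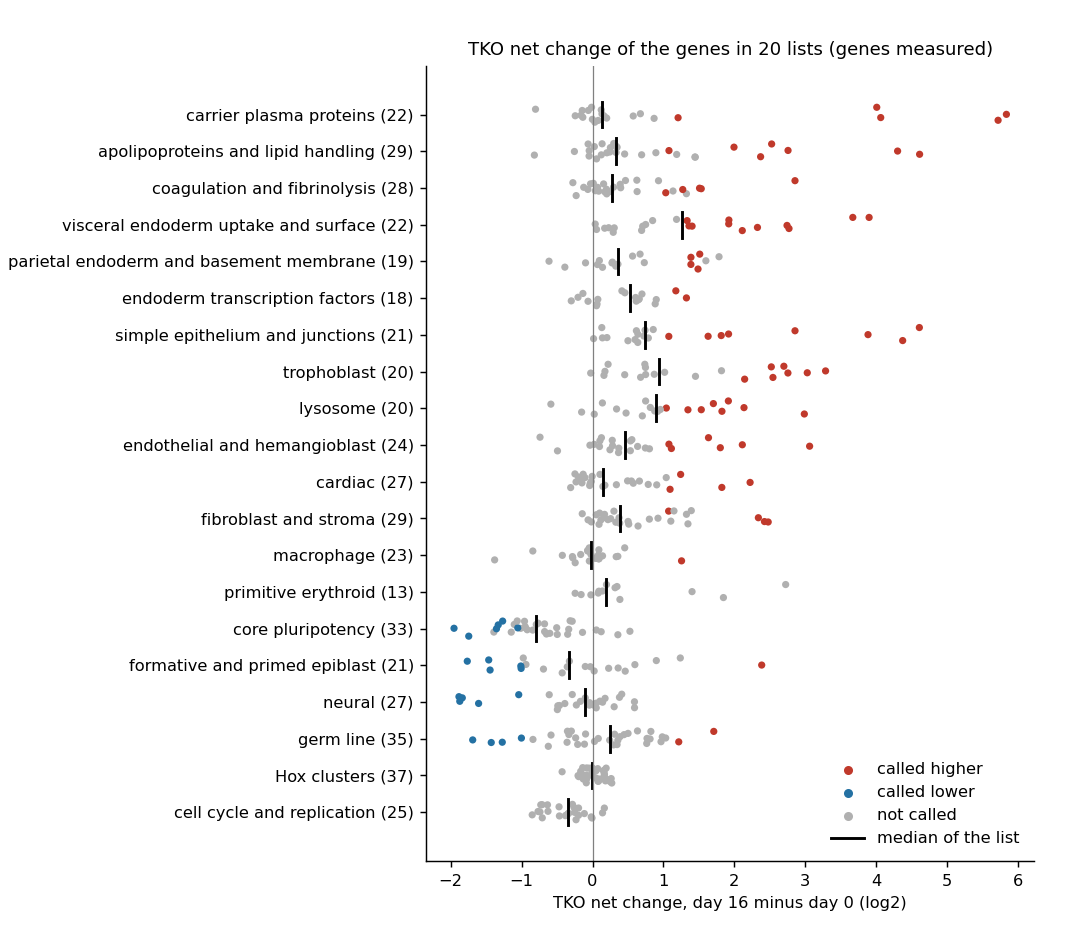
TKO net change (day 16 minus day 0, log2 scale) of each measured gene in 20 lists, with the number of genes measured in brackets; red points were called higher, blue points lower and grey points neither, and black bars are list medians. Carrier proteins and apolipoproteins reach furthest to the right, up to 5.84 for *Afp*, whereas the Hox clusters and the cell cycle genes hold no called gene.

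The largest rise of all belonged to *Afp*, the main serum protein of yolk sac and fetal liver, whose signals were 5.0 and 5.20 at day 0 and 10.95 and 10.92 at day 16. The difference was 5.84 ± 0.35, adjusted p = 1.3e-05. *Ttr*, the carrier of thyroxine and of the retinol-binding protein, read 4.89 and 5.15 at day 0 and 11.20 and 10.28 at day 16, a difference of 5.72 ± 0.62, adjusted p = 0.00023. Carriers of retinol and iron followed. *Rbp4*, the retinol-binding protein itself, read 6.0 and 6.03 at day 0 and 10.76 and 9.40 at day 16 (4.06 ± 0.37, adjusted p = 5.5e-05). *Trf*, which carries iron in plasma, read 6.46 and 6.31 at day 0 and 10.44 and 10.34 at day 16 (4.01 ± 0.19, adjusted p = 2.2e-06). These 4 genes kept their calls without any single array, and the day 16 arrays of *Rbp4* lay further apart than those of *Afp* or *Trf*. *Igfbp1*, a binding protein of insulin-like growth factors, rose far less, by 1.21 ± 0.26 (adjusted p = 0.02). Its call was lost without each array in turn (adjusted p = 0.071 to 0.13 without any one of the 4 arrays).

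Albumin, the most abundant plasma protein and the neighbour of *Afp* in the genome, was not called. *Alb* read 4.05 and 3.95 at day 0 and 3.96 and 4.01 at day 16, a difference of -0.01 ± 0.35 at a level near that of unexpressed genes, whereas the wt EBs read 11.33 and 12.19 at day 16 and the Dnmt1-/- EBs 8.05 and 9.44. Of 22 carrier proteins measured, 5 were called higher in TKO and none lower, with a median of 0.13 beside -0.01 over all probe sets. The counts were 4 without day 0 replicate 1, 4 without day 0 replicate 2, 4 without day 16 replicate 1 and 4 without day 16 replicate 2. In wt the same list had 18 members called higher, where 8.65% of all genes were called higher and 5.67% lower. In Dnmt1-/- it had 13 called higher and 1 lower, where the shares over all genes were 6.46% and 2.69%.

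Proteins of lipoprotein assembly rose with the carriers. *Apob*, the structural protein of large lipoproteins, read 5.13 and 5.05 at day 0 and 10.08 and 9.32 at day 16 (4.61 ± 0.40, adjusted p = 5.5e-05), and *Apoa1*, the main protein of high density lipoprotein, 6.12 and 5.91 at day 0 and 10.68 and 9.95 at day 16 (4.30 ± 0.31, adjusted p = 3.3e-05). *Mttp*, the transfer protein that loads lipid onto *Apob*, rose by 1.99 ± 0.27 (adjusted p = 0.0013), *Apoa2* by 2.53 ± 0.33 (0.001) and *Plin2*, which coats lipid droplets, by 2.37 ± 0.29 (0.00064). All 5 held their calls without any single array. *Apom* rose by 2.76 ± 0.55 (adjusted p = 0.013), with an adjusted p of 0.061 to 0.13 without day 0 replicate 1, day 0 replicate 2 or day 16 replicate 1. The lipoprotein receptor *Scarb1* rose by 1.08 ± 0.21 (0.011), with 0.1 to 0.13 without day 0 replicate 1 or day 16 replicate 1. In all, 7 of 29 genes of lipid handling were called higher and none lower (median 0.33), against 17 in wt and 13 in Dnmt1-/-. *Apoa4* (1.44 ± 0.47, adjusted p = 0.11) and *Apoa5* (-0.06 ± 0.21, adjusted p = 0.96) were not called.

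Of the 3 fibrinogen chains, which must be made together to form the clotting protein, 1 was called. *Fgb* read 4.66 and 4.86 at day 0 and 7.72 and 7.50 at day 16 (2.85 ± 0.18, adjusted p = 1.5e-05), *Fgg* read 3.91 and 3.95 at day 0 and 6.0 and 4.51 at day 16 (1.32 ± 0.41, adjusted p = 0.093) and *Fga* 4.56 and 5.30 at day 0 and 5.23 and 5.42 at day 16 (0.40 ± 0.38, adjusted p = 0.74). The day 16 arrays of *Fgb* lay within 0.22 of each other. *Procr*, the endothelial receptor of protein C, rose by 1.51 ± 0.22 (adjusted p = 0.0023) and kept its call without any single array, as *Fgb* did. *Serpinf2*, the inhibitor of plasmin, rose by 1.53 ± 0.31 (0.014), but its adjusted p was 0.0504 to 0.13 without day 0 replicate 1, day 16 replicate 1 or day 16 replicate 2. The plasminogen activators *Plat* (1.27 ± 0.26, 0.014) and *Plau* (1.03 ± 0.19, 0.0087) also depended on single arrays, *Plat* with 0.073 to 0.15 without day 0 replicate 1, day 16 replicate 1 or day 16 replicate 2 and *Plau* with 0.066 to 0.094 without day 0 replicate 1 or day 16 replicate 2. The coagulation list thus had 5 of 28 called higher and none lower (median 0.28; 2 without day 0 replicate 1, 5 without day 0 replicate 2, 3 without day 16 replicate 1 and 5 without day 16 replicate 2), and 15 in wt. Of 17 complement genes only *Cfi*, the protease that inactivates complement fragments, was called (1.61 ± 0.21, adjusted p = 0.001).

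The stretches before the start sites of 5 rising genes of the endoderm lists are shown. In them the letters of factors known from yolk sac and liver can be looked for. The stretches are the 250 bases up to an annotated start, from RefSeq on GRCm38.p6. Capitals mark, on either strand, the letters GTTAAT of HNF1 sites, AGATAA of GATA sites, CAAAGTC of HNF4 sites and TATAAA of the TATA box. Apart from *Ttr*, which was not searched because its sequence is not reported here, and *Trf*, they are the genes with the largest rise in the endoderm lists whose stretch holds at least 1 of the motifs. For *Rbp4* and *Dab2* the start nearer to the end of the gene is shown.
Afp, chr5:90490464-90490713, plus strand: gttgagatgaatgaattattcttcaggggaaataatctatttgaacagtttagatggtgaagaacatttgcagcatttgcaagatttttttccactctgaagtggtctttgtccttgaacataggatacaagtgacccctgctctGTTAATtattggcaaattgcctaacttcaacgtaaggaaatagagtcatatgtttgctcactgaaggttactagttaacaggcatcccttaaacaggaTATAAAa
Apob, chr12:7977427-7977676, plus strand: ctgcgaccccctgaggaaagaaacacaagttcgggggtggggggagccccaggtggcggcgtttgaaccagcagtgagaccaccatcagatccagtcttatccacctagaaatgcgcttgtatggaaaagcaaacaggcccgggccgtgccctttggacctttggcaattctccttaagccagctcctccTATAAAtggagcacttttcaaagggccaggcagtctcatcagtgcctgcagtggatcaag
Rbp4, chr19:38124812-38125061, minus strand: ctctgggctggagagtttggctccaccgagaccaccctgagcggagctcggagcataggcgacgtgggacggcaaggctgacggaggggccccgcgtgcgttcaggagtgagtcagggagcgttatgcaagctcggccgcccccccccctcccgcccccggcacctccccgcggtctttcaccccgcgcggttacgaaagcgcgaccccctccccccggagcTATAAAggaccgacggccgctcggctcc
Dab2, chr15:6386498-6386747, plus strand: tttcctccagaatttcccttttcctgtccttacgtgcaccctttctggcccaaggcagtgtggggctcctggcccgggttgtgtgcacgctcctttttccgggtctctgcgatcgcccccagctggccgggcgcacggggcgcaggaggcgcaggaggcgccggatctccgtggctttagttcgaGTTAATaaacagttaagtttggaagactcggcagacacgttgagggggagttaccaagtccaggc
Fgb, chr3:83049864-83050113, minus strand: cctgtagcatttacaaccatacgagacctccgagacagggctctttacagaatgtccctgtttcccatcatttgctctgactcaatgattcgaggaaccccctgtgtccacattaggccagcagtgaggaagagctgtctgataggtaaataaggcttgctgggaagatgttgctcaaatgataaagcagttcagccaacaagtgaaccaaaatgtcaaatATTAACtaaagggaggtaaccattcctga
*Afp* held the HNF1 letters starting 105 bases before its start and TATA letters 7 bases before it. In *Dab2* the HNF1 letters began 65 and in *Fgb*, on the opposite strand, 29 bases before the start, while *Apob* and *Rbp4* held TATA letters 60 and 28 bases before theirs. Among one start each of 27025 genes, 6.52% held the HNF1, 10.3% the GATA, 3.8% the HNF4 and 13% the TATA letters in a stretch of this length. No motif was found in the stretches of *Apoa1* and *Cubn*, which says only that these letters are absent there.

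The list of uptake and surface genes of visceral endoderm had the largest share of calls among the 36 lists, 11 higher and none lower of 22, with a median of 1.26. It holds proteases, carriers and other surface proteins beside endocytic genes. Wt had 10 higher and 1 lower, and Dnmt1-/- 17 higher. *Dab2*, the adaptor that links endocytic receptors to clathrin coats, read 6.17 and 6.25 at day 0 and 10.41 and 9.80 at day 16 (3.90 ± 0.37, adjusted p = 7.2e-05). *Cubn*, the receptor that takes up lipoproteins and vitamin carriers, read 5.82 and 6.0 at day 0 and 10.28 and 8.88 at day 16 (3.67 ± 0.58, adjusted p = 0.0034). Its partner proteins were not called: *Amn*, which anchors *Cubn* in the membrane, read 6.26 and 6.49 at day 0 and 7.25 and 7.0 at day 16 (0.75 ± 0.26, adjusted p = 0.14), and *Lrp2*, the large endocytic receptor, 8.62 and 8.26 at day 0 and 9.46 and 8.80 at day 16 (0.69 ± 0.32, adjusted p = 0.3). The protease *Ctsh* rose by 2.77 ± 0.38 (adjusted p = 0.0014) and the membrane protease *Tmprss2* by 2.33 ± 0.25 (0.00021). *Slc39a8*, an importer of zinc and manganese, rose by 2.74 ± 0.44 (0.0036) and *Slc13a4*, a sulphate carrier, by 2.11 ± 0.40 (0.0092). Among the genes named here, *Slc39a8* lost its call with an adjusted p of 0.05 without day 0 replicate 1, and *Slc13a4* gave 0.1 without day 0 replicate 1 or day 16 replicate 1. Over the list the counts were 7 without day 0 replicate 1, 8 without day 0 replicate 2, 7 without day 16 replicate 1 and 11 without day 16 replicate 2.

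The factors that specify endoderm moved little beside these products. *Gata4*, a zinc finger factor of primitive endoderm and heart, read 6.47 and 6.68 at day 0 and 8.01 and 7.79 at day 16 (1.32 ± 0.26, adjusted p = 0.011) and *Gata6*, its relative that starts the primitive endoderm programme, 6.17 and 6.53 at day 0 and 7.77 and 7.29 at day 16 (1.17 ± 0.24, adjusted p = 0.013). Both calls rested on 2 arrays: the adjusted p was 0.098 to 0.11 without day 0 replicate 1 or day 16 replicate 1 for *Gata4* and 0.13 to 0.14 without day 0 replicate 1 or day 16 replicate 1 for *Gata6*. *Sox17* (0.88 ± 0.20, adjusted p = 0.022), *Sox7* (0.41 ± 0.24, adjusted p = 0.45) and *Foxa1* (0.62 ± 0.22, adjusted p = 0.15), the next measured members, did not reach a difference of 1, and neither did *Hnf4a*, a liver and yolk sac factor, with 7.48 and 6.83 at day 16 after 6.29 and 6.23 at day 0. The list of 18 factors had 2 called higher and none lower in TKO (median 0.53; 0 without day 0 replicate 1, 3 without day 0 replicate 2, 0 without day 16 replicate 1 and 4 without day 16 replicate 2), against 10 in wt and 8 in Dnmt1-/-. Basement membrane, which parietal endoderm lays down, had 4 of 19 genes called higher: the collagen IV chains *Col4a1* (1.51 ± 0.29, adjusted p = 0.011) and *Col4a2* (1.39 ± 0.33, 0.031), and the collagen-processing proteins *Serpinh1* (1.49, 0.039) and *P4ha1* (1.39, 0.048). None of the 4 held its call through all leave-outs, the counts being 0 without day 0 replicate 1, 0 without day 0 replicate 2, 0 without day 16 replicate 1 and 1 without day 16 replicate 2. The laminin chains *Lama1* (-0.61 ± 0.48, adjusted p = 0.64), *Lamb1* (0.67 ± 0.20, adjusted p = 0.086) and *Lamc1* (-0.39 ± 0.22, adjusted p = 0.43) were not called.

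The day 4 arrays show when a rise took place. Because they enter both steps, the steps are given side by side without a test of their difference. Among the plasma proteins, *Apoa1*, *Rbp4* and *Trf* had barely moved by day 4. *Apoa1* read 6.16 and 6.21, *Rbp4* 5.35 and 5.78 and *Trf* 6.19 and 6.45, with day 4 means within 0.45 of the day 0 means. A few genes had risen most of the way by then. *Slc40a1*, ferroportin, the exporter of iron from cells, read 5.77 and 5.68 at day 0, 8.96 and 8.95 at day 4 and 9.93 and 10.07 at day 16 (net change 4.28 ± 0.31, adjusted p = 3.3e-05). *Gdpd3*, an enzyme that splits lysophospholipids, read 4.05 and 4.02, then 7.94 and 8.02 and then 8.83 and 7.70 (net 4.23 ± 0.39, adjusted p = 5.6e-05). *Car4*, a carbonic anhydrase on the cell surface, followed the same course with 6.16 and 6.39, 9.55 and 9.67 and 10.97 and 9.83 (net 4.13 ± 0.34, adjusted p = 5.5e-05). The keratin gene *Krt18* rose in both steps, by 2.69 up to day 4 and by 1.92 after it. *Nrk*, an X-linked kinase of the placenta, rose from 5.64 and 5.39 through 6.57 and 6.8 to 9.74 and 9.60 (net 4.15 ± 0.35, adjusted p = 5.5e-05).

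**Figure D2:**
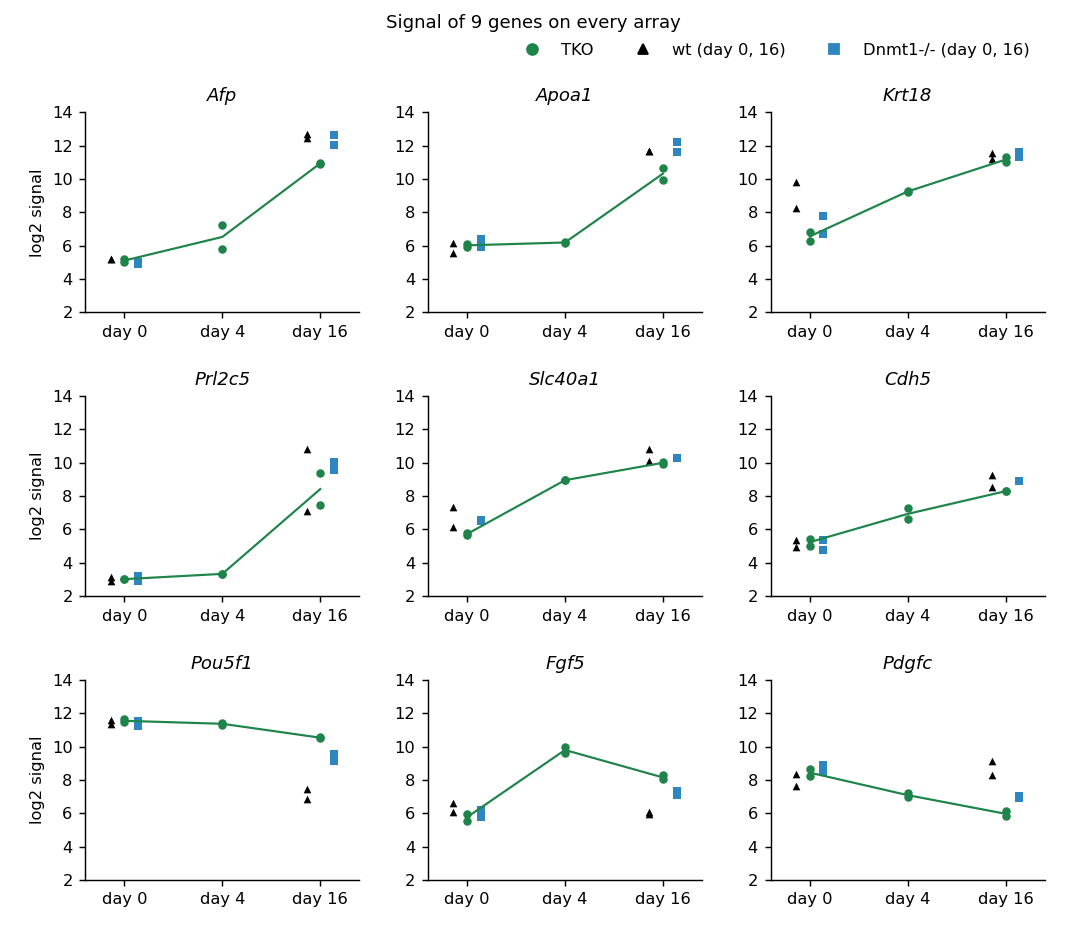
Log2 signal of 9 genes on each array of TKO at days 0, 4 and 16 (green circles, line through the means) and of wt (black triangles) and Dnmt1-/- (blue squares) at days 0 and 16. In TKO, *Apoa1* and *Prl2c5* rise after day 4, *Slc40a1* is already at 8.96 and 8.95 at day 4, *Fgf5* peaks at day 4, and *Pou5f1* stays above 10 on every array.

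Placental genes rose beside those of the yolk sac. The prolactin family is a group of hormone genes on chromosome 13, most of which are made by placental giant cells and spongiotrophoblast. Apart from *Prl2c5* and *Prl7d1*, which are among the 15 largest rises, the family was picked out after its values were seen. *Prl2c5* read 3.0 and 3.03 at day 0 and 7.47 and 9.37 at day 16 (5.41 ± 0.86, adjusted p = 0.0035), and *Prl7d1* read 3.54 and 3.47 at day 0 and 7.76 and 8.69 at day 16 (4.72 ± 0.46, adjusted p = 9.3e-05). Of 20 family members measured, 12 were called higher, by 1.52 to 5.41, and 8 were not called, with differences between -0.20 and 0.14. The called group included *Prl2a1* (3.73), *Prl7b1* (3.41), *Prl7a1* (3.26) and *Prl4a1* (3.01), and the uncalled group *Prl* itself, the pituitary hormone. None of the 12 was called at day 4, when they lay between -0.23 and 0.72 of day 0. On the day 16 arrays 11 of the 12 read higher in replicate 2, with medians of 5.86 in replicate 1 and 6.62 in replicate 2. The number called was 7 without day 0 replicate 1, 8 without day 0 replicate 2, 10 without day 16 replicate 1 and 8 without day 16 replicate 2. *Prl2a1* was among those lost without day 0 replicate 1 (adjusted p = 0.052). In wt 9 and in Dnmt1-/- 11 of the 20 were called higher. Family members are close copies, so probe sets may share signal and a rise of single members is uncertain.

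**Figure D3:**
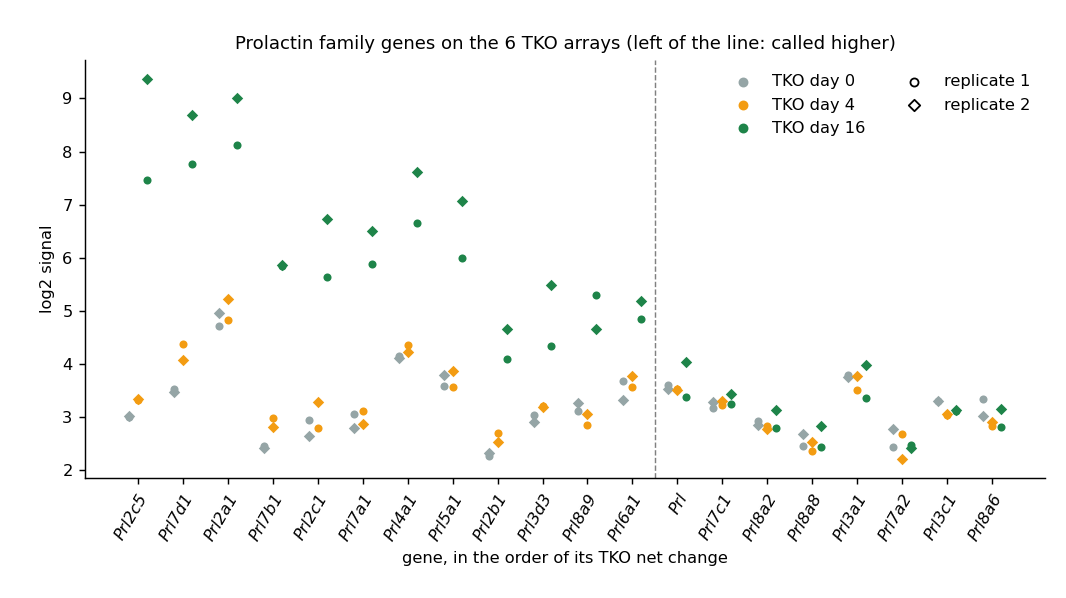
Log2 signal of the 20 prolactin family genes on the 6 TKO arrays (grey day 0, orange day 4, green day 16; circles replicate 1, diamonds replicate 2), ordered by net change. Left of the dashed line lie the 12 genes called higher, whose day 16 points stand clear of both earlier days; the 8 genes on the right stay between 2.20 and 4.04 on every array.

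The stretches before *Prl2c5* and *Prl7d1* are shown because the 2 genes rose together; they too were chosen after the values were seen.
Prl2c5, chr13:13182466-13182715, plus strand: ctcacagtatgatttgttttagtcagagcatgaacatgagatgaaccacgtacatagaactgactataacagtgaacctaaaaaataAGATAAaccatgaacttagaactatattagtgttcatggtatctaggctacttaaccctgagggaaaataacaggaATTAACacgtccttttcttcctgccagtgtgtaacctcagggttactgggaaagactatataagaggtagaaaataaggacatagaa
Prl7d1, chr13:27716738-27716987, minus strand: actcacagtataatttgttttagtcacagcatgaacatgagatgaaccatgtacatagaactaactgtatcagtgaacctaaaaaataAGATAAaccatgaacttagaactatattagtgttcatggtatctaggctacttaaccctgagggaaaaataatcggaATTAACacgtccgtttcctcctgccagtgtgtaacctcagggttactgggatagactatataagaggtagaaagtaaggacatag
Both held the GATA letters, starting 163 and 162 bases before the start, and on the opposite strand the HNF1 letters, 87 and 85 bases before it. Among family members with an annotated start, 6 of 10 called higher and 1 of 7 not called held the GATA letters, and 3 of 10 and 1 of 7 the HNF1 letters. Over all 27025 promoters the shares were 10.3% and 6.52%. Family members are copies of one another, so these counts are not separate observations, and a link of a motif to a rise was not tested. The 2 stretches shown are near copies of each other.

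*Serpinb9e*, one of a cluster of protease inhibitors on chromosome 13 that is used in the placenta, read 3.45 and 3.43 at day 0 and 8.67 and 8.90 at day 16 (5.35 ± 0.50, adjusted p = 6.5e-05) and kept its call without any single array. Other cluster members were looked up after this value was seen: *Serpinb9d* differed by 1.99 ± 0.30, adjusted p = 0.0022, *Serpinb9b* by 2.36 ± 0.51, adjusted p = 0.018, *Serpinb9* by 1.93 ± 0.40, adjusted p = 0.015 and *Serpinb9c* by 2.27 ± 0.61, adjusted p = 0.051. These copies are similar in sequence too, and the call of *Serpinb9b* was lost without each array (adjusted p = 0.077 to 0.13 without any one of the 4 arrays), that of *Serpinb9* with 0.066 to 0.13 without day 0 replicate 2, day 16 replicate 1 or day 16 replicate 2. In the trophoblast list 7 of 20 genes were called higher and none lower, with a median of 0.94, against 11 in wt and 10 in Dnmt1-/-. *Plac1*, an X-linked placental surface protein, read 5.62 and 5.0 at day 0 and 8.71 and 8.48 at day 16 (3.29 ± 0.47, adjusted p = 0.0019). *Gata3*, a factor of trophoblast differentiation, read 5.83 and 5.20 at day 0 and 8.17 and 7.90 at day 16 (2.52 ± 0.26, adjusted p = 0.00015). The keratin *Krt7* rose by 3.03 ± 0.25 (adjusted p = 5.5e-05), the homeobox genes *Rhox9* by 2.75 ± 0.52 (0.0098) and *Rhox6* by 2.70 ± 0.41 (0.0027), and the imprinted *Peg10* by 2.14 ± 0.27 (0.00075). The exception through the leave-outs was *Rhox9*, whose adjusted p was 0.061 to 0.098 without day 0 replicate 1, day 0 replicate 2 or day 16 replicate 1. The stem cell factors of trophoblast were not called: *Cdx2* read 6.0 and 6.16 at day 0 and 6.30 and 6.21 at day 16 and *Elf5* 5.03 and 5.13 at day 0 and 5.86 and 5.78 at day 16. *Elf5* differed by 0.74 ± 0.17, adjusted p = 0.028, short of the line of 1, and *Tpbpa*, a marker of spongiotrophoblast, by 1.82 ± 0.51, adjusted p = 0.06.

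Simple epithelium keratins were among the largest rises and were high in every sample at day 16. *Krt18* read 6.84 and 6.27 at day 0 and 11.32 and 10.996 at day 16 (4.61 ± 0.46, adjusted p = 0.00011), its filament partner *Krt8* 7.97 and 7.47 at day 0 and 11.79 and 11.42 at day 16 (3.88 ± 0.44, adjusted p = 0.00032) and *Krt19* 6.52 and 6.78 at day 0 and 11.10 and 10.95 at day 16 (4.37 ± 0.44, adjusted p = 0.00012). The tight junction genes *Cldn7* (1.92 ± 0.27, adjusted p = 0.0017) and *Cldn6* (1.63 ± 0.22, 0.0013) rose less, and so did the sugar-binding *Lgals2* (2.85 ± 0.32, 0.00034) and the desmosome protein *Dsp* (1.81 ± 0.34, 0.0092). *Dsp* lost its call with an adjusted p of 0.064 to 0.088 without day 0 replicate 1, day 0 replicate 2 or day 16 replicate 1. *Epcam* (0.13 ± 0.26, adjusted p = 0.92) and the E-cadherin gene *Cdh1* (0.14 ± 0.22, adjusted p = 0.88), both already on in ESCs, were not called. Of 21 genes in this list 8 were called higher and none lower (median 0.74), and 10 each in wt and Dnmt1-/-.

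Lysosomal proteases and hydrolases, which digest what visceral endoderm takes up, had 8 of 20 members called higher and none lower (median 0.90), against 14 in wt and 16 in Dnmt1-/-. The cathepsin *Ctsc* read 7.15 and 7.23 at day 0 and 10.50 and 9.85 at day 16 (2.99 ± 0.32, adjusted p = 0.00021) and had reached 10.02 and 10.25 at day 4. The other proteases *Lgmn* (2.14 ± 0.24, adjusted p = 0.00034), *Ctsb* (1.92 ± 0.19, 0.00012) and *Ctsl* (1.82 ± 0.20, 0.00022) and the membrane protein *Lamp2* (1.53 ± 0.23, 0.0027) also rose, and these 5 genes held their calls without any single array. *Gm2a*, a cofactor of ganglioside breakdown, rose by 1.70 ± 0.35 (0.013), with 0.051 to 0.13 without day 0 replicate 1, day 0 replicate 2 or day 16 replicate 1. *Ctsd* was not called (0.75 ± 0.17, adjusted p = 0.023).

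Of the mesoderm lists, vessels had the clearest members. *Cdh5*, the cadherin of endothelial junctions, read 5.01 and 5.45 at day 0 and 8.28 and 8.31 at day 16 (3.06 ± 0.29, adjusted p = 7.8e-05) and held its call without any single array. *Kdr*, the receptor of vascular endothelial growth factor, read 5.18 and 5.41 at day 0 and 7.59 and 7.23 at day 16 (2.11 ± 0.36, adjusted p = 0.0051) and had been higher at day 4, at 8.49 and 8.91. The related receptor *Flt1* rose by 1.64 ± 0.26 (adjusted p = 0.0034), the blood and vessel factor *Gata2* by 1.80 ± 0.41 (0.024), *Ramp2* by 1.11 ± 0.27 (0.03) and the junction protein *Esam* by 1.08 ± 0.18 (0.0043). Calls that rested on single arrays had an adjusted p of 0.062 without day 0 replicate 1 or day 16 replicate 1 for *Kdr*, 0.052 without day 0 replicate 1 for *Flt1*, 0.063 to 0.16 without any one of the 4 arrays for *Gata2* and 0.056 to 0.26 without day 0 replicate 1, day 0 replicate 2 or day 16 replicate 1 for *Ramp2*. The receptor *Tek* read 7.36 and 7.18 at day 0 and 7.77 and 7.03 at day 16 and was not called (0.13 ± 0.48, adjusted p = 0.96), and nor was *Emcn* (0.64 ± 0.41, adjusted p = 0.53). The list of 24 had 6 called higher and none lower, and 8 each in wt and Dnmt1-/-. Over all genes 2.34% were called higher in TKO, 8.65% in wt and 6.46% in Dnmt1-/-.

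Heart and stroma genes had fewer members called higher in TKO than in wt. Over all genes 2.34% were called higher in TKO, 8.65% in wt and 6.46% in Dnmt1-/-. In the cardiac list 4 of 27 were called higher and none lower (median 0.15), against 17 in wt and 14 in Dnmt1-/-. They were the actin gene *Actc1* (2.22 ± 0.44, adjusted p = 0.012), the factors *Tbx20* (1.82 ± 0.38, adjusted p = 0.016) and *Hand1* (1.24 ± 0.26, adjusted p = 0.016), and the myosin light chain *Myl4* (1.09 ± 0.18, adjusted p = 0.0042), and the counts were 0 without day 0 replicate 1, 2 without day 0 replicate 2, 1 without day 16 replicate 1 and 4 without day 16 replicate 2. *Nkx2-5*, the early factor of heart muscle, read 7.15 and 7.32 at day 0 and 7.01 and 7.42 at day 16, and *Tnnt2*, a troponin of the sarcomere, 5.98 and 6.06 at day 0 and 6.49 and 6.87 at day 16 (0.66 ± 0.17, adjusted p = 0.045). Contractile genes outside the heart had 5 of 17 called higher, led by the smooth muscle actin *Acta2* (2.89 ± 0.57, adjusted p = 0.012) and the tropomyosin *Tpm1* (1.79 ± 0.32, adjusted p = 0.0064), with counts of 0 without day 0 replicate 1, 2 without day 0 replicate 2, 0 without day 16 replicate 1 and 5 without day 16 replicate 2. The stroma list had 4 of 29 called higher in TKO and 23 each in wt and Dnmt1-/-. *Pdgfra*, a receptor of primitive endoderm as well as of mesenchyme, read 5.44 and 5.36 at day 0 and 8.15 and 7.50 at day 16 (2.42 ± 0.29, adjusted p = 0.00053) and alone held its call through every leave-out. *Ccn1* (2.48 ± 0.40, adjusted p = 0.0036), *Thbs1* (2.34 ± 0.49, adjusted p = 0.016) and the collagen *Col1a2* (1.07 ± 0.26, adjusted p = 0.035) did not, with list counts of 2 without day 0 replicate 1, 2 without day 0 replicate 2, 1 without day 16 replicate 1 and 6 without day 16 replicate 2. *Col1a1* (0.92 ± 0.34, adjusted p = 0.17) and *Col3a1* (0.51 ± 0.23, adjusted p = 0.28) were not called.

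One of 23 macrophage genes was called, the receptor *Csf1r*, with 4.77 and 5.05 at day 0 and 6.30 and 6.04 at day 16 (1.26 ± 0.26, adjusted p = 0.016). Its adjusted p was 0.054 to 0.15 without day 0 replicate 1, day 0 replicate 2 or day 16 replicate 1, and *Ptprc*, the defining surface marker of blood cells, read 4.17 and 4.54 at day 0 and 4.19 and 4.68 at day 16. In wt 17 of the same genes were called higher and in Dnmt1-/- 2. None of 13 red cell genes was called, by limma, and 1 had an unadjusted p below 0.05 with a rise. The embryonic globins were uneven between the day 16 arrays: *Hbb-y* read 4.68 and 4.44 at day 0 and 8.45 and 6.12 at day 16, *Hba-x* 5.90 and 5.80 at day 0 and 8.54 and 6.86 at day 16 and *Hbb-bh1* 4.46 and 4.23 at day 0 and 6.66 and 4.84 at day 16. In all 3 the higher day 16 array was replicate 1.

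Of 33 pluripotency genes 6 were called lower in TKO, where 0.762% of all genes were, and none higher, with a median of -0.79. At an unadjusted p below 0.05, 19 were lower and 0 higher. By contrast, 28 were called lower in wt (median -2.50) and 25 in Dnmt1-/- (median -1.59). *Pou5f1*, which encodes Oct4, read 11.64 and 11.45 at day 0 and 10.52 and 10.55 at day 16, a difference of -1.01 ± 0.41, adjusted p = 0.22. *Nanog* read 11.18 and 11.17 at day 0 and 10.77 and 10.89 at day 16 (-0.35 ± 0.47, adjusted p = 0.85) and *Sox2* 10.84 and 10.88 at day 0 and 10.59 and 10.55 at day 16 (-0.29 ± 0.33, adjusted p = 0.8). *Utf1*, a chromatin protein of ESCs, read 11.37 and 11.38 at day 0 and 10.95 and 11.14 at day 16 (-0.34 ± 0.31, adjusted p = 0.72). *Esrrb* (-0.96 ± 0.38, adjusted p = 0.2), *Zfp42* (-1.10 ± 0.38, adjusted p = 0.13) and *Klf2* (-0.68 ± 0.23, adjusted p = 0.13), factors of the naive state, were not called either. A missing call does not show that these genes kept their ESC level.

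The 6 that were called are the adhesion gene *Jam2* (-1.95 ± 0.47, adjusted p = 0.03), the nuclear receptor gene *Nr0b1* (-1.75 ± 0.44, adjusted p = 0.041), the growth factor gene *Gdf3* (-1.35 ± 0.28, adjusted p = 0.016), the methylcytosine oxidases *Tet2* (-1.33 ± 0.33, adjusted p = 0.036) and *Tet1* (-1.27 ± 0.23, adjusted p = 0.0081), and the homeobox gene *Gbx2* (-1.05 ± 0.20, adjusted p = 0.011). *Tet1* read 10.70 and 10.77 at day 0 and 9.28 and 9.65 at day 16. All 6 rested on single arrays: the counts were 0 without day 0 replicate 1, 0 without day 0 replicate 2, 0 without day 16 replicate 1 and 4 without day 16 replicate 2, and for *Tet1* the adjusted p was 0.059 to 0.089 without day 0 replicate 1, day 0 replicate 2 or day 16 replicate 1. At day 4 *Tet1* had already reached 8.92 and 9.31 and *Jam2* 7.48 and 8.68.

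**Figure D4:**
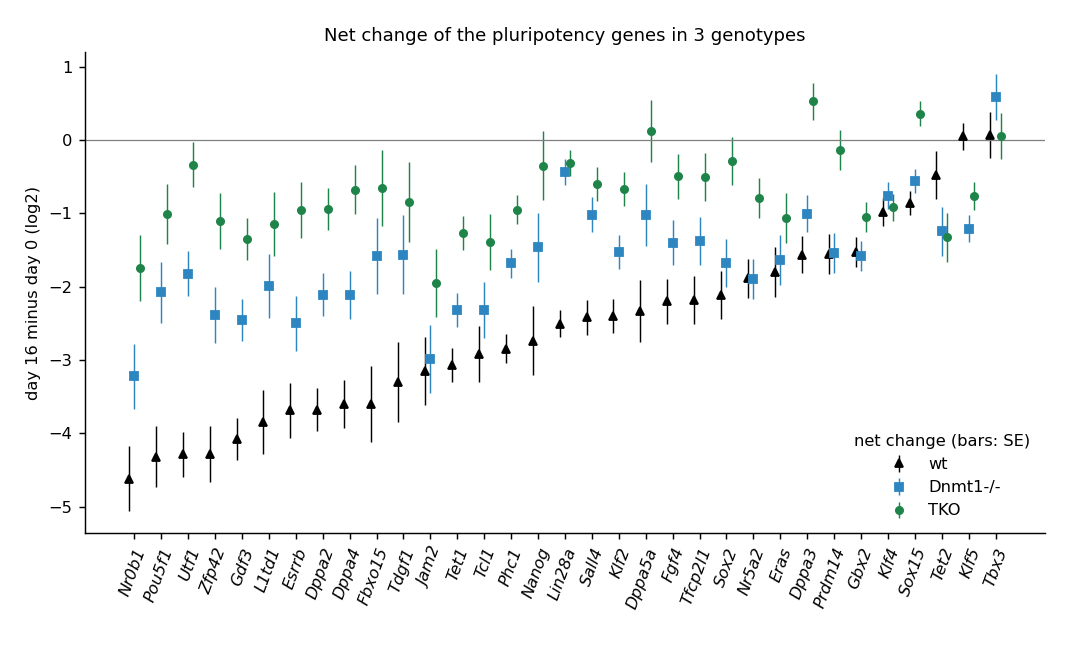
Net change from day 0 to day 16 (log2, with standard errors of the fit) of the 33 measured pluripotency genes in wt (black triangles), Dnmt1-/- (blue squares) and TKO (green circles), ordered by the wt change. TKO values lie between -1.95 and 0.53, while wt values reach -4.62 for *Nr0b1*.

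Epiblast genes moved both ways. *Fgf5*, the growth factor that marks the epiblast after implantation, read 5.55 and 5.97 at day 0 and 8.27 and 8.03 at day 16 (2.39 ± 0.45, adjusted p = 0.0094), after 9.96 and 9.63 at day 4, and its adjusted p was 0.083 to 0.098 without day 0 replicate 1 or day 16 replicate 1. *Otx2*, a homeobox factor of epiblast and forebrain, read 8.14 and 8.38 at day 0 and 9.59 and 9.40 at day 16 and missed the call (1.24 ± 0.38, adjusted p = 0.093). Called lower were *Spry4*, an inhibitor of growth factor signalling (-1.77 ± 0.30, adjusted p = 0.0049), the Nodal antagonist *Lefty1* (-1.46 ± 0.35, adjusted p = 0.032), the ETS factor *Etv4* (-1.44 ± 0.21, adjusted p = 0.0019), *Tcf15* (-1.01 ± 0.21, adjusted p = 0.017) and *Fgf15* (-1.01 ± 0.24, adjusted p = 0.028), of which *Etv4* alone held its call without any single array. The list thus had 1 higher and 5 lower of 21, against 1 and 13 in wt. Its falls numbered 2 without day 0 replicate 1, 2 without day 0 replicate 2, 1 without day 16 replicate 1 and 3 without day 16 replicate 2. The streak factor *Eomes* peaked at day 4 (9.49 and 9.18) and read 4.80 and 5.33 at day 0 and 6.90 and 6.28 at day 16 (1.53 ± 0.57, adjusted p = 0.17), and *Mixl1* had returned from 9.09 and 8.84 to 5.78 and 6.07, beside 5.46 and 5.90 at day 0. Of 19 streak genes *Fgf17* was called lower (-2.20 ± 0.28, adjusted p = 0.00091, 8.22 and 8.39 at day 0 and 5.95 and 6.26 at day 16) and the retinoic acid hydroxylase *Cyp26a1* higher (1.98 ± 0.49, adjusted p = 0.037), the latter lost without each array (adjusted p = 0.057 to 0.24 without any one of the 4 arrays).

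The largest fall was that of *Accsl*, a relative of plant aminocyclopropane carboxylate synthases, with 7.25 and 7.0 at day 0 and 4.50 and 4.61 at day 16 (-2.57 ± 0.21, adjusted p = 5.5e-05). *Gng3*, a G protein subunit of neurons, followed with 9.14 and 9.0 at day 0 and 6.30 and 6.84 at day 16 (-2.50 ± 0.27, adjusted p = 0.00023), and *Pdgfc*, a platelet-derived growth factor, with 8.63 and 8.25 at day 0 and 6.13 and 5.81 at day 16 (-2.47 ± 0.29, adjusted p = 0.00039). The others of the 15 largest falls were *Dusp27* (-2.49), *1700029P11Rik* (-2.29), *Fgf17* (-2.20), the adhesion adaptor *Fblim1* (-2.03), *Jam2* (-1.95), *Efhc2* (-1.93), the clathrin light chain *Cltb* (-1.90), the neuronal *Neurod1* (-1.88), *Gap43* (-1.87) and *Stmn2* (-1.84), the olfactory receptor gene *Olfr307* (-1.87) and *Pcyt1b*, an enzyme of lecithin synthesis (-1.87). Apart from *Jam2* (adjusted p = 0.094 to 0.2 without any one of the 4 arrays), all 15 held their calls without any single array. Several had fallen by day 4: *Accsl* read 4.33 and 5.01 and *Cltb* 7.18 and 7.36 then, against 7.35 and 7.31 at day 16.

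Genes used by neurons were called lower from an ESC level, not higher. *Stmn2*, which regulates microtubules in growing axons, read 10.69 and 10.48 at day 0 and 8.77 and 8.73 at day 16 (-1.84 ± 0.27, adjusted p = 0.0022), *Gap43*, a growth cone protein, 8.71 and 8.64 at day 0 and 6.78 and 6.83 at day 16 (-1.87 ± 0.31, adjusted p = 0.0042) and the factor *Neurod1* 6.83 and 6.50 at day 0 and 4.65 and 4.91 at day 16 (-1.88 ± 0.26, adjusted p = 0.0013). The tubulin *Tubb3* (-1.61 ± 0.28, adjusted p = 0.0061) and *Pax6*, a factor of neural progenitors (-1.04 ± 0.27, adjusted p = 0.042), fell too, but the adjusted p was 0.066 to 0.076 without day 0 replicate 1 or day 16 replicate 1 for *Tubb3* and 0.12 to 0.35 without day 0 replicate 1, day 16 replicate 1 or day 16 replicate 2 for *Pax6*. The neural list had 5 of 27 lower and none higher, and 2 higher and 4 lower in wt. *Nes*, the filament of neural stem cells, read 5.98 and 6.13 at day 0 and 6.75 and 6.53 at day 16 (0.59 ± 0.35, adjusted p = 0.47), after 8.2 and 7.93 at day 4. *Hes6*, *Fabp7* and *Fzd3*, further genes of neural development, had differences of 0.38 ± 0.21, -0.17 ± 0.37 and 0.14 ± 0.21, and none was called.

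Germ line genes were mixed. *Dazl*, which binds mRNAs in germ cells, rose from 8.09 and 7.76 to 9.86 and 9.41 (1.71 ± 0.31, adjusted p = 0.0071) and *Asz1*, of the piRNA pathway, by 1.22 ± 0.27, adjusted p = 0.02. The synaptonemal complex gene *Syce1* (-1.69 ± 0.28, adjusted p = 0.0043), the meiotic *Hormad1* (-1.43 ± 0.30, adjusted p = 0.015), *Ctcfl*, the testis relative of CTCF (-1.27 ± 0.19, adjusted p = 0.0027), and *Piwil2*, an Argonaute of germ cells (-1.0 ± 0.16, adjusted p = 0.0041), were called lower. Of these 6 only *Ctcfl* held its call without any single array, and the list counts were 1 without day 0 replicate 1, 0 without day 0 replicate 2, 0 without day 16 replicate 1 and 4 without day 16 replicate 2 for rises and 1 without day 0 replicate 1, 4 without day 0 replicate 2, 2 without day 16 replicate 1 and 3 without day 16 replicate 2 for falls. In wt none of 35 was called higher and 12 lower, and in Dnmt1-/- 7 higher and 5 lower.

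Among 25 imprinted genes *Sgce* (2.31 ± 0.21, adjusted p = 6e-05) and *Peg3* (2.12 ± 0.26, adjusted p = 0.00059), both expressed from the paternal copy, were called higher and *Grb10*, a growth inhibitor, lower (-1.04 ± 0.17, adjusted p = 0.0046; without day 0 replicate 2 the difference was below 1). *Igf2*, the fetal growth factor, read 6.55 and 6.8 at day 0 and 6.99 and 6.71 at day 16 and was not called (0.18 ± 0.31, adjusted p = 0.9), and 15 of these genes were called higher in wt. Signalling lists held single calls: *Bmp5* (1.70 ± 0.44, adjusted p = 0.046), *Id3* (1.54 ± 0.33, adjusted p = 0.017) and, lower, *Inhbb* (-1.03 ± 0.19, adjusted p = 0.0094) of 18 BMP and TGF-beta genes; the Wnt antagonist *Notum*, lower (-1.19 ± 0.26, adjusted p = 0.019), of 17; *Cxcl10* (1.09 ± 0.25, adjusted p = 0.025) of 17 interferon response genes; and *Ndrg1* (1.98 ± 0.33, adjusted p = 0.005) of 18 glycolysis and hypoxia genes. Each of these 6 calls was lost in at least 1 leave-out: *Bmp5* with 0.14 to 0.33 without day 0 replicate 1, day 0 replicate 2 or day 16 replicate 1, *Id3* with 0.15 without day 0 replicate 2 or day 16 replicate 1, *Inhbb* with 0.062 to 0.074 without day 0 replicate 1, day 0 replicate 2 or day 16 replicate 1, *Notum* with 0.17 to 0.19 without day 0 replicate 1 or day 16 replicate 1, *Cxcl10* with 0.051 to 0.18 without any one of the 4 arrays and *Ndrg1* with 0.073 without day 0 replicate 1. Of 11 reference genes *B2m*, the light chain of class I molecules, was called higher (1.90 ± 0.28, adjusted p = 0.0024), while *Actb* differed by -0.22, *Hprt* by -0.19 and *Ppia* by -0.13.

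Besides the red cell genes, 9 lists held no call by limma. They were the Hox clusters (37 genes, with differences from -0.43 to 0.27), cell cycle and replication (25), sterol synthesis (18), cell cycle inhibitors and p53 targets (18), Polycomb (18), the DNA methylation machinery (12), X-linked testis families (4), the 2-cell-like state (8) and ESC microRNA genes (20). At an unadjusted p below 0.05 they had 0 Hox, 11 cell cycle, 4 sterol, 5 p53, 5 Polycomb, 8 methylation, 0 testis family and 2 microRNA genes, and 1 gene of the 2-cell-like state. Replication genes stayed short of the line of 1, for example the helicase subunits *Mcm2* (-0.74 ± 0.14, adjusted p = 0.0082) and *Mcm5* (-0.73 ± 0.12, adjusted p = 0.0043); 14 genes of that list were called lower in wt, and the median was -0.35 in TKO and -1.04 in wt. Of the probe sets of the targeted genes, that of *Dnmt3a* differed by -0.98 ± 0.22, adjusted p = 0.024, that of *Dnmt3b* by 0.23 ± 0.24, adjusted p = 0.78 and that of *Dnmt1* by 0.00 ± 0.16. The microRNA genes *Mir302a*, *Mir302b* and *Mir302d*, of a cluster that is active in epiblast cells, had large but uncertain differences of 2.04, 2.29 and 2.17, and *Mir302b* read 3.0 and 2.89 at day 0 and 6.01 and 4.46 at day 16.

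The wt arrays at days 0 and 16, which share no array with TKO, show which of these changes are common. Of the 466 genes called higher in TKO, 356 (76.4%) were also called higher in wt, and they made up 20.6% of the 1724 wt rises. Among the falls 95 genes were shared, 62.5% of the TKO list and 8.41% of the 1130 in wt. Genes called higher in wt had a median change of 1.54 there and 0.54 in TKO, and those called lower -1.34 and -0.50. The wt values chose those genes, so part of the gap follows from the choice.

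The difference of the 2 net changes was tested gene by gene in the same fit. At the level of probe sets it was called for 1388, and for 903 without TKO day 0 replicate 2. By gene it was called in the direction of a lower TKO change for 671 genes (3.37%) and of a higher one for 375 (1.88%). Stroma, liver and macrophage genes led the first group. *Alb* differed by -7.91 ± 0.50, adjusted p = 8.3e-06, *Dcn* and *Lum*, small proteoglycans of connective tissue, by -6.83 ± 0.42, adjusted p = 8.3e-06 and by -6.08 ± 0.35, adjusted p = 5.7e-06, and *Col3a1* by -4.95 ± 0.32, adjusted p = 1.1e-05. *Dcn* read 4.81 and 5.03 at day 0 and 5.42 and 4.74 at day 16 in TKO and 4.71 and 4.67 at day 0 and 11.54 and 11.81 at day 16 in wt. The fetal plasma protein *Ahsg* (-5.93), the milk-clotting protease *Cym* (-6.40), the glucuronosyltransferase *Ugt2b34* (-5.96) and the macrophage lysozyme *Lyz2* (-5.46) made up the 8 largest, all of which held without any single array. None of the 8 was called in TKO itself, where the day 16 arrays of *Lyz2* read 3.66 and 3.95 beside 9.22 and 8.68 in wt. By list, 19 of 29 stroma, 15 of 23 macrophage, 13 of 22 carrier, 13 of 27 cardiac and 11 of 28 coagulation genes had a TKO change called lower than that of wt. When 1 array was left out, the counts were 16 to 18 for stroma, 13 to 16 for macrophage and 10 to 12 for carrier genes. The cardiac count fell to 6 without TKO day 0 replicate 2, and the coagulation count to 6 without TKO day 0 replicate 2 or wt day 16 replicate 2 and to 7 without TKO day 16 replicate 2. The visceral endoderm uptake and surface list had 1 called lower and 1 called higher. Median net changes in TKO and wt were 1.26 and 0.91 in that list, 0.90 and 1.32 in the lysosome list and 0.74 and 0.98 in the epithelium list. A difference of net changes had a median SE of 0.29, so small differences could be missed.

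**Figure D5:**
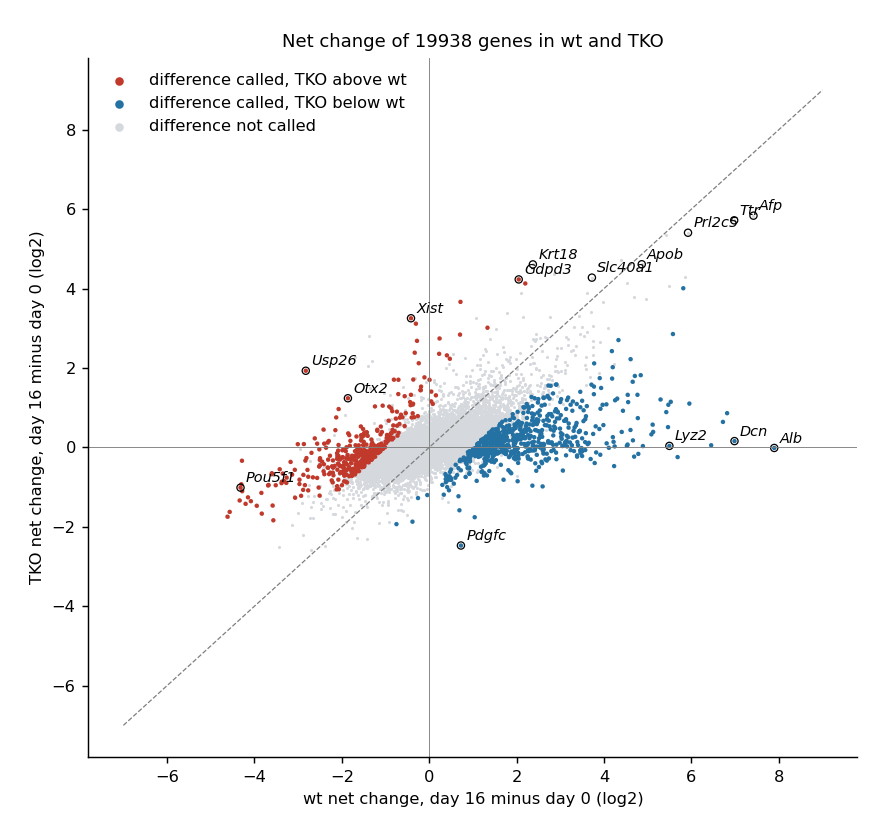
Net change from day 0 to day 16 (log2) of each gene in wt (horizontal) and TKO (vertical); red and blue points are genes whose difference between genotypes was called with TKO above or below wt, grey points were not called, and the dashed line marks equal change. *Afp* lies at 7.42 in wt and 5.84 in TKO, *Alb* at 7.89 and -0.01, and *Pou5f1* at -4.32 and -1.01.

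In the opposite direction stood genes that rose in TKO and genes that fell in wt. *Usp26*, an X-linked deubiquitinase gene of testis, read 6.99 and 7.37 at day 0 and 8.82 and 9.41 at day 16 in TKO (1.93 ± 0.31, adjusted p = 0.0035) and 7.51 and 7.67 at day 0 and 4.59 and 4.94 at day 16 in wt, a difference of 4.76 ± 0.43, adjusted p = 7.9e-05. The TKO rise alone gave an adjusted p of 0.053 without day 0 replicate 1. *Xist*, the RNA that coats the inactive X chromosome, read 4.58 and 4.50 at day 0 and 8.22 and 7.36 at day 16 in TKO (3.25 ± 0.24, adjusted p = 3.3e-05) and 4.29 and 4.50 at day 0 and 3.89 and 4.05 at day 16 in wt, and differed by 3.67 ± 0.33, adjusted p = 7.8e-05. In Dnmt1-/- its day 16 arrays read 9.27 and 9.38. *Gm1698*, a predicted gene, rose by 3.12 ± 0.21 in TKO and differed from wt by 3.42 ± 0.29, adjusted p = 4.5e-05. The pluripotency genes *Utf1* (3.95 ± 0.43, adjusted p = 0.0003), *Pou5f1* (3.31 ± 0.58, adjusted p = 0.0058) and *Zfp42* (3.18 ± 0.54, adjusted p = 0.0045), the methyltransferase cofactor *Dnmt3l* (3.37 ± 0.54, adjusted p = 0.0032) and *Otx2* (3.10 ± 0.54, adjusted p = 0.0057) completed the 8 largest, which also held without any single array. *Dnmt3l* read 11.32 and 11.06 at day 0 and 10.23 and 10.29 at day 16 in TKO. In the pluripotency list 20 of 33 genes fell less in TKO by this test and none more. That count was 14 without TKO day 0 replicate 2 and 14 to 16 over all leave-outs.

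Of the 15 largest rises and 15 largest falls in TKO, 7 had a change that differed from wt. *Gdpd3* (2.18 ± 0.55, adjusted p = 0.04) and *Car4* (1.93 ± 0.49, adjusted p = 0.04) rose more in TKO and *Trf* (-1.81 ± 0.27, adjusted p = 0.0027) rose less. *Pdgfc* was called lower in TKO and not called in wt (-3.20 ± 0.40, adjusted p = 0.00074), where it read 7.62 and 8.36 at day 0 and 9.11 and 8.32 at day 16. *Efhc2* (-1.18 ± 0.27, adjusted p = 0.023) and *Olfr307* (-1.49 ± 0.37, adjusted p = 0.035) fell more and *Stmn2* (1.73 ± 0.38, adjusted p = 0.021) fell less. The difference held in every leave-out for *Trf* and *Pdgfc*. For the others its adjusted p was 0.096 to 0.13 without any one of 6 of the 8 arrays for *Gdpd3*, 0.07 to 0.15 without any one of 6 of the 8 arrays for *Car4*, 0.0501 to 0.092 without any one of 7 of the 8 arrays for *Efhc2*, 0.054 to 0.14 without any one of 7 of the 8 arrays for *Olfr307* and 0.0504 to 0.086 without any one of 6 of the 8 arrays for *Stmn2*.

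Against Dnmt1-/-, whose cells keep *Dnmt3a* and *Dnmt3b*, 48 genes had a lower TKO change (0.241%) and 2 a higher one (0.01%). The 54 probe sets behind this count became 13 to 71 when 1 array was left out: 13 without Dnmt1-/- day 0 replicate 1, 14 without TKO day 16 replicate 2, 15 without TKO day 0 replicate 2, 22 without TKO day 0 replicate 1, 23 without Dnmt1-/- day 16 replicate 1 and 26 without Dnmt1-/- day 0 replicate 2. With p-values adjusted over all net changes and differences together there were 411, of which 95 higher and 316 lower, and in a fit of the arrays compared alone 2, both lower. Of the 466 TKO rises 421 (90.3%) were also called higher in Dnmt1-/-, 32.7% of the 1287 there, and of the falls 115 (75.7%), 21.4% of 537. The largest differences were those of *Alb* (-4.85 ± 0.50, adjusted p = 0.002), *Dcn* (-4.63 ± 0.42, adjusted p = 0.0012), *Igf2* (-4.07 ± 0.45, adjusted p = 0.003) and *Igfbp1* (-3.92 ± 0.37, adjusted p = 0.0012), and these 4 held without any single array. *Igf2* read 6.46 and 6.53 at day 0 and 10.78 and 10.70 at day 16 in Dnmt1-/- and was not called in TKO. *Igfbp1* read 5.17 and 5.34 at day 0 and 10.95 and 9.81 at day 16 there and 5.33 and 5.26 at day 0 and 6.54 and 6.45 at day 16 in TKO. The 2 genes with a higher TKO change were *Zfp459*, a zinc finger gene (1.83 ± 0.28, adjusted p = 0.026), and *Dmrt1*, a factor of germ cells and testis (1.53 ± 0.26, adjusted p = 0.047). Neither was called in TKO itself, and both calls depended on single arrays: *Zfp459* had an adjusted p of 0.093 to 0.16 without any one of 6 of the 8 arrays, and *Dmrt1* of 0.077 to 0.21 without any one of the 8 arrays. *Pou5f1* and *Nanog* differed from Dnmt1-/- by 1.07 ± 0.58 and 1.11 ± 0.66, and neither was called.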

How the data were processed

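RNA of wt, Dnmt1-/- and TKO cells at days 0, 4 and 16, lysed in Trizol, was hybridised to 18 Affymetrix GeneChip Mouse Gene 1.0 ST arrays. The authors deposited log2 values made by RMA (named in the submitters' processing notes), which corrects background, normalises between arrays and summarises the probes of a set; no version is named. RMA draws arrays towards 1 distribution, so a shift of all transcripts together cannot be seen. The 35512 probe sets, none with a missing value, were fitted in limma 3.58.1 (R 4.3.3) with 9 groups of 2 arrays and 9 residual degrees of freedom. Contrasts were day 16 minus day 0 in TKO, wt and Dnmt1-/-, and their differences; p-values were adjusted by Benjamini-Hochberg over all probe sets, and ± is the standard error of the fit. Symbols came from the platform annotation, updated to RefSeq: 21789 probe sets had 1 symbol, 1621 several and 12102 none, and the probe set with the highest mean signal stood for each of 19938 genes. The fit was tested on simulated data. No counts underlie array values, and precision is limited by 2 arrays a group.

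Named genes were the 15 largest rises and 15 largest falls, up to 6 called and the first 5 measured members of each of 36 lists (841 genes, 748 measured), genes central to the study, and the 8 and 4 largest differences each way from wt and Dnmt1-/-. The largest rises and falls were taken from called genes whose day 0 and day 16 arrays did not overlap. This condition removed no called gene, so it adds nothing beyond the call. *Scarb1*, *Cldn6*, *Peg10*, *Tnnt2*, *Emcn*, *Hnf4a* and *Tpbpa* were added with values seen. Members and lists were chosen with earlier results of these data known. Alternatives were the scaling, centring, a filter on dim probe sets, 1 probe set per gene, the variance model, the adjustment, a replicate block, the arrays in the fit, a lower line and leaving out each array.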

Additional observations from a re-analysis of the deposited data

Results flagged for a closer look

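Each value here is a difference of net changes, TKO minus the other genotype on the log2 scale, that passed the test of that difference in limma; none was weighed against an explanation. In all, 1388 probe sets differed from wt and 54 from Dnmt1-/-. The largest gaps below wt were those of *Alb* (-7.91), *Dcn* (-6.83), *Cym* (-6.40), *Lum* (-6.08), *Ugt2b34* (-5.96), *Ahsg* (-5.93), *Lyz2* (-5.46) and *Col3a1* (-4.95). Above wt stood *Usp26* (4.76), *Utf1* (3.95), *Xist* (3.67), *Gm1698* (3.42), *Dnmt3l* (3.37), *Pou5f1* (3.31), *Zfp42* (3.18) and *Otx2* (3.10). Among the 15 largest rises and falls of TKO the change differed from wt for *Gdpd3* (2.18), *Car4* (1.93), *Trf* (-1.81), *Pdgfc* (-3.20), *Efhc2* (-1.18), *Olfr307* (-1.49) and *Stmn2* (1.73). Against Dnmt1-/- the gaps were those of *Alb* (-4.85), *Dcn* (-4.63), *Igf2* (-4.07), *Igfbp1* (-3.92), *Zfp459* (1.83) and *Dmrt1* (1.53).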

How the results depend on the processing

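The TKO net change, with 887 called probe sets, gave 803 to 1044 under the scalings, centring, variance model, wider adjustment, dim probe set filter, replicate block (1044) and the fit of the 6 TKO arrays, 698 with 1 probe set per gene, 350 in a fit of the 4 arrays compared alone and 1681 with a line of 0.6. Leaving out an array gave 393 to 895. The difference from wt (1388) gave 825 in a fit of the arrays compared alone, 1781 with the replicate block, and 903 to 1512 when an array was left out. The difference from Dnmt1-/- (54) was the least settled: 133 with 1 probe set per gene, 411 (95 higher, 316 lower, against 3 and 51) with p-values adjusted over all net changes and differences together, 91 with the replicate block, 2 in a fit of the arrays compared alone, and 13 to 71 when an array was left out. The fits of fewer arrays had fewer residual degrees of freedom, and for the other settings the cause was not tested. For 58 single-gene results the settings were the leave-outs, the scalings, the variance model, the replicate block and the fit of the arrays compared alone. None reversed under these. The variance model, the block and that fit leave the size of a difference unchanged, so they could not reverse it. Many of the 58 were also picked for large changes. These results lost their call in 23 of 320 values with an array left out. They lost it in 10 of 290 others, 7 of these in the fit of the arrays compared alone. Without any single array 53 of the 58 kept their side of the threshold. The replicate block changed the call of none of them. Deviations of same-numbered arrays from their group means correlated at 0.34 between TKO day 0 and day 16 and at 0.04 to 0.50 over the 36 pairs of groups, of which 32 lay above 0.1. All 36 lay above 0, so same-numbered arrays shared part of their deviation. The labels do not say that a number marks a shared experiment, and the block was kept as an alternative.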

Other observations

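Genes on the X chromosome, among them *Usp26*, *Xist*, *Nrk* and *Plac1*, made up 37 of the genes called higher and 5 of those called lower, out of 739 tested there. Over all genes 2.34% were called higher and 0.762% lower, and the X-linked share was not tested. A further 143 probe sets called higher and 46 called lower had no gene symbol in the annotation, and 34 and 9 had several, so these calls are assigned to no gene here.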
